A study of Homo sapiens with 12 samples.

Results

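The 46 genes described here encode collagen chains and the proteins that modify, fold, trim and cross-link collagen. Each was found in the count table by its gene symbol: 28 genes of collagen chains and 18 genes of enzymes and helpers, all 46 of them among its 28395 gene identifiers. Their RNA was read in 12 sequencing libraries made from BEAS-2B, an immortalised human line that comes from bronchial epithelium. The 4 groups of 3 libraries were dexamethasone with TGF-β1 (Dex + TGF-β1), TGF-β1 alone, dexamethasone alone (Dex) and an untreated control. TGF-β1 was given at 40 pM for 24 h and dexamethasone at 30 nM for the 4 h that followed, and cells of all groups had been without serum for 24 h before. TGF-β1 is a cytokine with strong effects on matrix genes, while dexamethasone is a man-made steroid and activates the glucocorticoid receptor. The study compared the 3 treatments with each other and with the control. The cells are 1 line, and the labels name no vehicle for the control.

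Collagens are the main structural proteins of the extracellular matrix. Their chains are hydroxylated on proline and lysine in the endoplasmic reticulum, wound into helices with the help of a chaperone, secreted, trimmed by proteinases and cross-linked outside the cell by lysyl oxidases. Bronchial epithelium rests on a basement membrane of type IV collagen and is held to it by collagens VII and XVII, whereas the fibrillar types I, III and V are mostly known as products of fibroblasts. TGF-β1 is a known inducer of fibrillar collagen and of the enzymes that process it.

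Total counts per library were 5861591 to 7008203 in replicates 1 and 2 and 17968961 to 19727235 in replicate 3 of every group, so replicate 3 carries the smallest counting error. One label field, on growth, speaks of A549 lung carcinoma cells, whereas the source, cell type and treatment fields name BEAS-2B. All 7 airway epithelial markers had reads in every group, and together they summed to 1829 to 2772 CPM in Dex + TGF-β1 libraries, 1265 to 1913 CPM with TGF-β1, 2283 to 3061 CPM with Dex and 2080 to 2753 CPM in controls (CPM, the usual scaling of read counts to a common library size, with TMM-corrected sizes). With TGF-β1 against control, 0 of these 7 markers were higher and 4 were lower, where 16.2% of all tested genes were higher and 16.6% lower. With the replicate number as a block, 1 was higher and 4 were lower, against 24.6% and 25.5% of all tested genes. The 7 transcripts listed as abundant in A549 cells summed to 15.7 to 55.7 CPM over the 12 libraries. Of 6 fibroblast markers, PDGFRB and THY1 carried nearly all reads, and PDGFRA, DCN, LUM and TCF21 averaged under 1 CPM in every group, with 0 reads of LUM in the Dex libraries. The fibroblast markers summed to 635 to 971 CPM in Dex + TGF-β1 libraries, 504 to 724 CPM with TGF-β1, 264 to 428 CPM with Dex and 251 to 380.3 CPM in controls. Of the 2 tested fibroblast markers, PDGFRB rose by 2.34 (SE 0.13) with TGF-β1 against control, and THY1, at 415 ± 107 CPM with TGF-β1 and 291 ± 66.5 CPM in controls (SD, n = 3 each), did not pass without the replicate block (edgeR adjusted p = 0.172). THY1 averaged 636 ± 168 CPM with Dex + TGF-β1. The part of these markers in the results was not tested. Leukocyte markers summed to at most 6.98 CPM and endothelial markers to at most 5.10 CPM.

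The 28 collagen genes took several times more of each library with TGF-β1 than without it. Their share of all counts was 2.17%, 1.70% and 2.14% in the 3 Dex + TGF-β1 libraries, 2.40%, 1.91% and 2.25% with TGF-β1, 0.354%, 0.306% and 0.268% with Dex and 0.352%, 0.301% and 0.268% in controls. All 6 libraries with TGF-β1 stood above all 6 without it, and the Dex and control libraries overlapped. The exact 95% (Clopper-Pearson) intervals reached at most 0.0121 percentage points from each share and cover counting error only. COL1A1, a chain of type I collagen, alone took 0.872%, 0.745% and 0.946% of counts with Dex + TGF-β1, 1.09%, 0.905% and 1.01% with TGF-β1, 0.0632%, 0.0565% and 0.0423% with Dex and 0.0749%, 0.0615% and 0.0513% in controls. Dex + TGF-β1 libraries were below the TGF-β1 library of the same number in 3 of 3 pairs for the collagen total, but the groups overlapped. An exact permutation test of 3 against 3 libraries cannot give a two-sided p below 0.1, so the shares are given without a test. In these bulk samples, fewer cells of a type and less RNA per cell cannot be told apart.

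**Figure D1:**
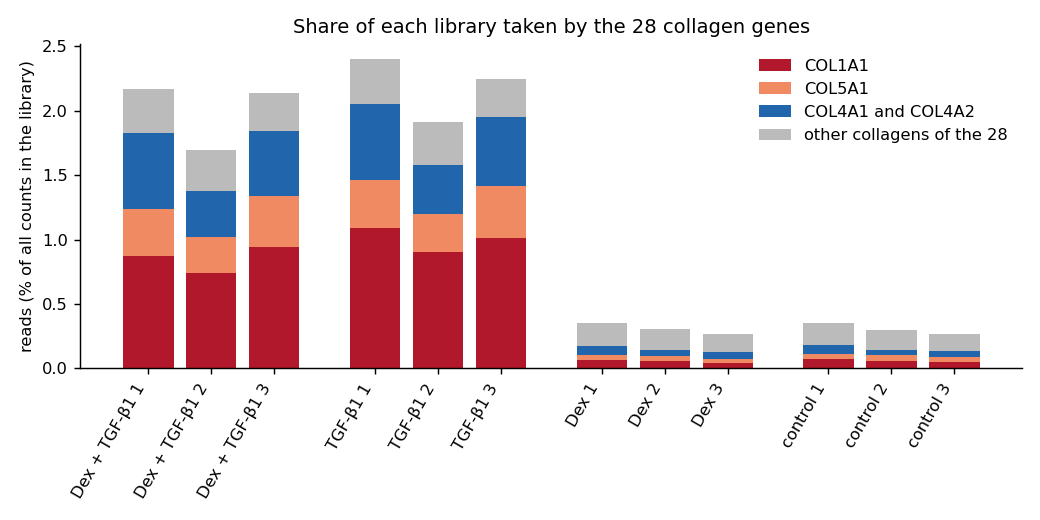
Share of all counts (%, y axis) taken by the 28 collagen genes in each of the 12 libraries (x axis), stacked as COL1A1, COL5A1, COL4A1 with COL4A2, and the other 24 genes. The stacks of the 6 libraries with TGF-β1 reach 1.70% to 2.40%, and those of the 6 without it reach 0.268% to 0.354%, with COL1A1 the tallest layer in all libraries with TGF-β1.

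Of the 46 genes, 44 passed the filter on low counts and were tested for changes with edgeR's quasi-likelihood test and Benjamini-Hochberg adjustment over the 13469 genes that passed. With TGF-β1 against control, 31 of the 44 were higher and 4 were lower at an adjusted p under 0.05, where 16.2% of all tested genes were higher and 16.6% were lower. With the replicate number as a block, 35 were higher and 4 lower, against 24.6% and 25.5% of all tested genes. Scaling by library size alone gave 28 higher and 4 lower, while all tested genes then split into 1251 higher and 4332 lower, where the TMM scaling gave 2186 and 2230. The median log2 fold change of the 44 was 1.11, and that of all 13469 genes was -0.009. By class, 16 of 26 tested chains rose and 3 fell, while 15 of 18 enzymes and helpers rose and 1 fell. Both genes left out by the filter had few reads: COL3A1, the type III chain, had 17 reads over the 3 TGF-β1 libraries and 6 over the 3 controls, and COL15A1, a basement membrane collagen, had 23 reads with TGF-β1 and 9 in controls. Effects are given on the log2 scale beside a standard error (SE), and each adjusted p comes from that edgeR fit.

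**Figure D2:**
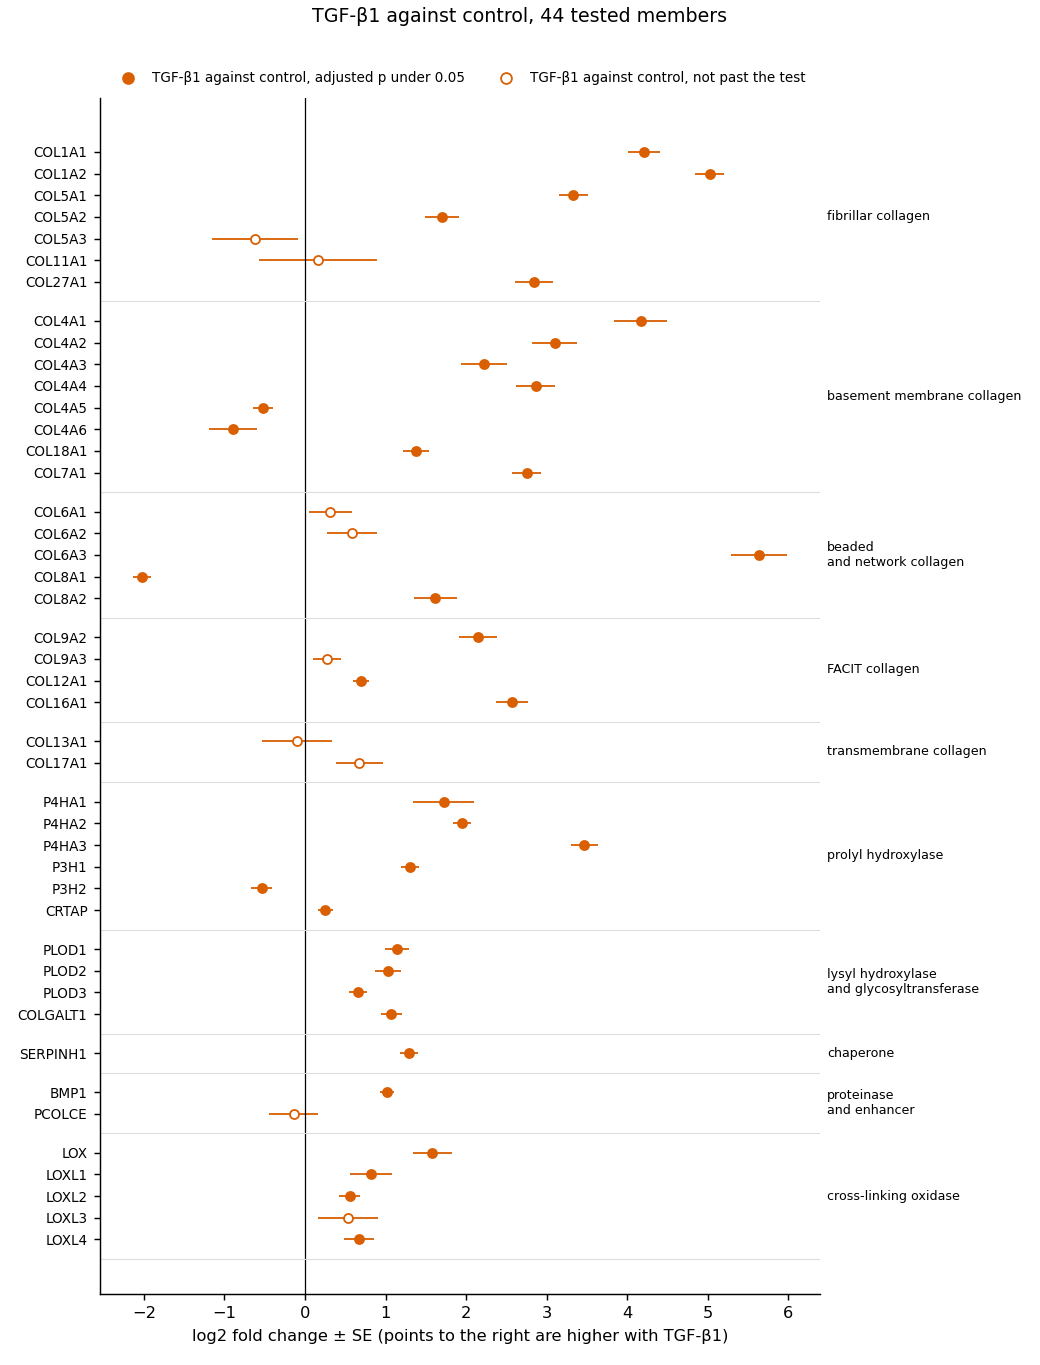
Log2 fold change ± SE (x axis) of TGF-β1 against control for the 44 tested genes, grouped by role (y axis), with filled points for an adjusted p under 0.05 and open points for the rest. Filled points run from -2.03 for COL8A1 to 5.64 for COL6A3, and 31 of the 35 filled points lie to the right of 0.

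Among the fibrillar collagens, 5 of 7 tested genes rose with TGF-β1 and 0 fell. COL1A2, which encodes the partner chain of COL1A1 in type I collagen, had 245, 194 and 202 CPM with TGF-β1 and 8.64, 5.43 and 5.99 CPM in controls. The groups did not overlap, and the change was 5.02 (SE 0.18, adjusted p = 5.18e-10) by edgeR with Benjamini-Hochberg adjustment. COL1A1 averaged 10616 ± 1288 CPM with TGF-β1 and 573 ± 109 CPM in controls (SD, n = 3 each), a change of 4.21 (SE 0.20). COL5A1 and COL5A2, the chains of type V collagen, which takes part in the assembly of type I fibrils, rose by 3.33 and 1.70 on the log2 scale. COL27A1, a fibrillar collagen known from cartilage, rose by 2.84. COL5A3 averaged 8.37 ± 4.40 CPM with TGF-β1 and 12.6 ± 5.32 CPM in controls, and COL11A1, a minor fibrillar chain, was low, with 1.12 ± 0.457 CPM with TGF-β1 and 0.886 ± 0.720 CPM in controls. Neither of these passed the edgeR test (Benjamini-Hochberg adjusted p = 0.409 and 0.887), and their 95% intervals of -1.80 to 0.55 and -1.42 to 1.76 are wide.

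The collagen IV genes split by gene pair. The 6 genes lie in 3 pairs, each with both genes read away from a shared stretch of DNA: COL4A1 with COL4A2 on chromosome 13, COL4A4 with COL4A3 on chromosome 2, and COL4A6 with COL4A5 on the X chromosome. The first 2 pairs rose with TGF-β1 and the X-linked pair fell. COL4A1, which with COL4A2 builds the network of nearly all basement membranes, had 3318, 1929 and 2959.9 CPM with TGF-β1 and 198, 106 and 152 CPM in controls. Every TGF-β1 library was above every control, and the change was 4.17 (SE 0.33, adjusted p = 3.87e-06) by edgeR with Benjamini-Hochberg adjustment. COL4A2 rose by 3.10 (SE 0.28). COL4A3 and COL4A4, whose chains join that of COL4A5 in the basement membranes of kidney glomeruli and lung alveoli, rose by 2.22 and 2.86 from low levels, with 5.75 ± 1.14 and 56.7 ± 16.9 CPM with TGF-β1 against 1.16 ± 0.301 and 7.76 ± 0.557 CPM in controls. COL4A3, which is counted among the genes called higher, passed the count filter only through groups with TGF-β1, so the filter favoured its rise.

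The X-linked pair went the other way. COL4A5 had 51.5, 67.3 and 57.0 CPM with TGF-β1 and 82.6, 88.8 and 81.4 CPM in controls, with no overlap, and fell by 0.52 on the log2 scale (SE 0.12, edgeR Benjamini-Hochberg adjusted p = 0.0043). COL4A6, whose chain pairs with that of COL4A5 in skin and smooth muscle, had 17.7, 24.3 and 15.5 CPM with TGF-β1 and 31.8, 46.3 and 28.4 CPM in controls. The highest TGF-β1 library lay below the lowest control, and the fall of 0.90 (SE 0.30) had an edgeR adjusted p of 0.038. That call was lost, with an adjusted p of 0.0596 to 0.149, without control replicate 1 or 2, TGF-β1 replicate 1 or 3, or Dex replicate 1. With the replicate number as a block its adjusted p was 5.85e-08. RHBDD1, which overlaps COL4A4, had 46.04% as many reads and a change of 0.094 with TGF-β1 (adjusted p = 0.652). Reads of overlapping genes cannot be assigned by strand with this non-directional library kit.

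The promoter sequences of the 3 pairs are shown because the members of a pair moved together. In the RefSeq promoter table (GRCh38.p14, from 250 bases before to 50 after each gene's start), the start sites of a pair have 126 bases between them for COL4A1 and COL4A2, 418 for COL4A4 and COL4A3, and 379 for COL4A6 and COL4A5, so the windows of each pair overlap. The RefSeq gene bounds leave 135 bases between COL4A4 and COL4A3, because the start used for the COL4A4 window lies inside the bounds of that gene. One window of each pair follows, read 5′ to 3′ on the gene's strand: COL4A1 at chr13:110307108-110307407 (minus strand), COL4A3 at chr2:227164374-227164673 (plus strand) and COL4A5 at chrX:108439588-108439887 (plus strand). Capitals mark matches of GGGCGG, a box that SP1 binds, or of CCAAT, on either strand.
COL4A1: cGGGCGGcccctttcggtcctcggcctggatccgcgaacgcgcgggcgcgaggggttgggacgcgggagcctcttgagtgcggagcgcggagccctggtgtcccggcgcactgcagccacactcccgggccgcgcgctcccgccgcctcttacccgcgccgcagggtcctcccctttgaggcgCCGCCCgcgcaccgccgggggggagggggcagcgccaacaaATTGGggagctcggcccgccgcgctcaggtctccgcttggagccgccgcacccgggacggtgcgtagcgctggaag
COL4A3: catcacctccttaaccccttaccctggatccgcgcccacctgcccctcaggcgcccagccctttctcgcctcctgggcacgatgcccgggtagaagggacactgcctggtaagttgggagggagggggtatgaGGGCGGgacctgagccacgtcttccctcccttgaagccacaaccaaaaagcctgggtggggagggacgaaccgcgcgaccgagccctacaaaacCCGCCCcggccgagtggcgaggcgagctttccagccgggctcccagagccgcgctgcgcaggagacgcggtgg
COL4A5: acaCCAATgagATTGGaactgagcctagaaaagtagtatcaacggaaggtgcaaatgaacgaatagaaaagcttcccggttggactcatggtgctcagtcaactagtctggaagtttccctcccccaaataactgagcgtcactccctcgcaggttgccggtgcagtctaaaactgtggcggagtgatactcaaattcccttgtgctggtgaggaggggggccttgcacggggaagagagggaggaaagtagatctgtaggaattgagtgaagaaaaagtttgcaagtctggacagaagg
The windows differ in base composition: G and C make up 76.7% of the COL4A1 window, 67.7% of that of COL4A3 and 49.3% of that of COL4A5. The COL4A1 and COL4A3 windows hold 2 matches of GGGCGG each, the COL4A2 window holds 1, and the windows of COL4A4, COL4A5 and COL4A6 hold 0. Matches are letters in a window and say nothing of binding.

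**Figure D3:**
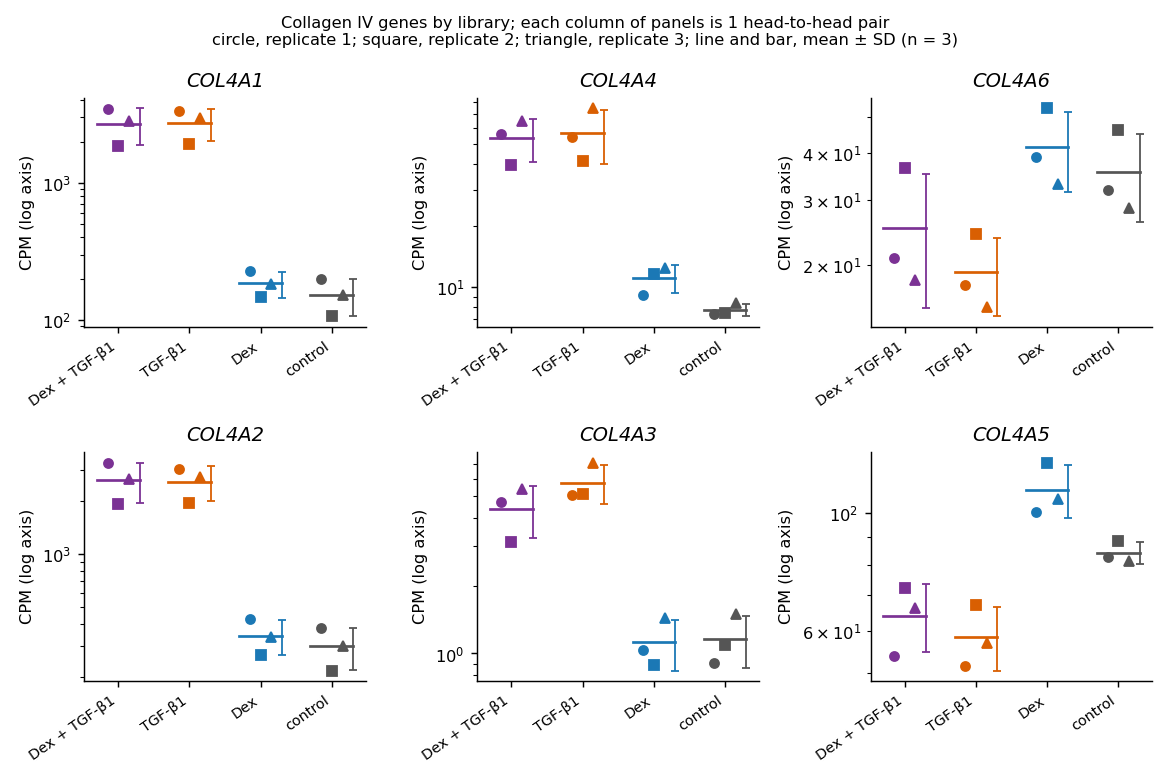
CPM (y axis, log scale) of the 6 collagen IV genes in the 3 libraries of each group (x axis), with the mean ± SD beside the points and the members of 1 gene pair in 1 column of panels. COL4A1 averages 2701 and 2736 CPM with Dex + TGF-β1 and TGF-β1 and 185 and 152 CPM with Dex and in controls, while COL4A5 averages 64.1 and 58.6 CPM with TGF-β1 present and 110.4 and 84.3 CPM without it.

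The other tested basement membrane collagens rose. COL7A1, which forms the anchoring fibrils beneath epithelia, had 1138, 1089 and 942 CPM with TGF-β1 and 155, 201 and 116 CPM in controls, with every TGF-β1 library far above every control, and a log2 fold change of 2.75 (SE 0.18). COL18A1, a proteoglycan-type collagen and the source of endostatin, rose by 1.38 (SE 0.16). The COL7A1 promoter window (chr3:48595280-48595579, minus strand) is shown because it is 1 of 4 among the members with CAGACA, the extended SMAD box. CAGACA was in 11.1% of the members with a window and in 16.8% of all windows, and a match says nothing of binding. Capitals mark a match of CAGACA (SMAD), those of the SP1 box GGGCGG, or the TATA box TATAAA, on either strand.
COL7A1: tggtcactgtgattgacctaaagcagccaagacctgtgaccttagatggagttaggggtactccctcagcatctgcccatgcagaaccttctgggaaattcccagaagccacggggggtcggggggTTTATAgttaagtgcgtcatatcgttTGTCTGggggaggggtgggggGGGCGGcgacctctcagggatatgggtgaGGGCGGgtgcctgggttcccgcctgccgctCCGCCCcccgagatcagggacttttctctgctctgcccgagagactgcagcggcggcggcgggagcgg

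Among the beaded and network collagens, the range ran from the largest rise to the largest fall of the 44 tested genes. COL6A3, a chain of the beaded filaments of type VI collagen, had 63.6, 39.4 and 63.1 CPM with TGF-β1 and 1.67, 1.55 and 0.725 CPM in controls, where it rested on 36 reads in all. The change was 5.64 (SE 0.35, adjusted p = 2.03e-07) by edgeR with Benjamini-Hochberg adjustment. Of its partner chains, COL6A1 averaged 452 ± 113 CPM with TGF-β1 and 364 ± 85.2 CPM in controls, and COL6A2 averaged 179 ± 38.2 CPM with TGF-β1 and 119.5 ± 44.6 CPM in controls. COL6A1 and COL6A2 did not pass the edgeR test (Benjamini-Hochberg adjusted p = 0.409 and 0.187). With the replicate number as a block, they passed with small rises of 0.31 (adjusted p = 0.0311) and 0.62 (adjusted p = 1.31e-06). COL6A2 also passed without control replicate 1, at 0.93 and an adjusted p of 0.0445.

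COL8A1 and COL8A2 encode the chains of type VIII collagen, a short-chain collagen of hexagonal networks known from the cornea and vessel walls. They moved apart with TGF-β1. COL8A1 had 33.3, 29.4 and 32.0 CPM with TGF-β1 and 129, 124 and 133 CPM in controls, with tight libraries in both groups. It fell by 2.03 on the log2 scale, or 4.08-fold (SE 0.11, edgeR Benjamini-Hochberg adjusted p = 1.52e-08). COL8A2, at a lower level per kilobase of transcript, averaged 6.38 ± 2.26 CPM with TGF-β1 and 1.97 ± 0.361 CPM in controls and rose by 1.62 (SE 0.27).

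Of the 4 FACIT collagens, which sit on the surface of fibrils, 3 rose. COL16A1, a minor fibril-associated chain, had 298, 194 and 221 CPM with TGF-β1 and 45.8, 44.5 and 31.5 CPM in controls, with no overlap and a change of 2.57 (SE 0.20, adjusted p = 1.12e-06) by edgeR with Benjamini-Hochberg adjustment. COL9A2, a type IX chain known from cartilage, rose by 2.15, with a mean of 11.5 CPM with TGF-β1 and 2.46 CPM in controls, and COL12A1, found on type I fibrils, rose by 0.70 (SE 0.10). COL9A3 changed by 0.28 (SE 0.17) and missed the threshold (adjusted p = 0.241), and passed it narrowly with the block (adjusted p = 0.0495). TCFL5, which overlaps it, had 223.6% as many reads. COL17A1, the transmembrane collagen of hemidesmosomes, had 102, 66.0 and 83.8 CPM with TGF-β1 and 71.9, 34.0 and 51.4 CPM in controls, which overlapped. Its change of 0.68 (SE 0.30) had an adjusted p of 0.108, which became 8.66e-08 with the block and 0.0388 without control replicate 1. COL13A1, a transmembrane collagen of cell junctions, stayed between 0.444 and 2.12 CPM in all 12 libraries.

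All 6 genes of proline hydroxylation changed with TGF-β1, and 5 of them rose. P4HA1, P4HA2 and P4HA3 encode the catalytic subunits of prolyl 4-hydroxylase, whose product keeps the collagen helix stable at body temperature. P4HA3 had 59.4, 49.2 and 60.3 CPM with TGF-β1 and 5.00, 5.28 and 5.02 CPM in controls, with no overlap, a change of 3.47 (SE 0.17, adjusted p = 8.13e-09) by edgeR with Benjamini-Hochberg adjustment and an 11.1-fold rise. PPME1, which overlaps P4HA3 and had 304% as many reads, changed by -0.28 (adjusted p = 0.223). P4HA2 rose by 1.95 (SE 0.11) and P4HA1 by 1.72 (SE 0.38). P4HA1 was uneven, with 113, 69.3 and 167 CPM in the 3 TGF-β1 libraries and 32.0, 35.4 and 39.0 CPM in controls. P3H1, the prolyl 3-hydroxylase that works in a complex with CRTAP, rose by 1.30 (SE 0.11). CRTAP itself changed little, by 0.25 (SE 0.091, adjusted p = 0.0468). That call was lost without any 1 of 7 libraries (all 3 controls, TGF-β1 replicates 1 and 3, Dex replicate 2 and Dex + TGF-β1 replicate 1), with an adjusted p of 0.0565 to 0.152. P3H2, a prolyl 3-hydroxylase that acts on type IV collagen, went down: 29.1 ± 2.14 CPM with TGF-β1 against 41.9 ± 6.44 CPM in controls, a fall of 0.54 (SE 0.13, edgeR adjusted p = 0.00558).

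The 4 genes of lysine modification, the chaperone and the main C-proteinase all rose, by 0.66 to 1.29 on the log2 scale. PLOD1, a lysyl hydroxylase of helical lysines, had 224, 163 and 262 CPM with TGF-β1 and 100.1, 97.6 and 97.3 CPM in controls, and rose by 1.14 (SE 0.15). TGF-β1 replicate 2 was the lowest of its group and still clear of every control. PLOD2, which hydroxylates the ends of the chains, rose by 1.03, PLOD3 by 0.66 and COLGALT1, which adds galactose to hydroxylysine, by 1.07. SERPINH1 encodes HSP47, the collagen-specific chaperone, and had 464, 402 and 464 CPM with TGF-β1 and 185, 199 and 160.3 CPM in controls, with a change of 1.29 (SE 0.11). Both groups were narrow and far apart. BMP1 encodes the proteinase that removes the C-terminal propeptide. It had 443, 464 and 423 CPM with TGF-β1 and 210.4, 242 and 202 CPM in controls, the smallest SE of the 44 genes (0.088) and a change of 1.02. PCOLCE, which enhances BMP1, stayed low at 3.41 ± 0.617 CPM with TGF-β1 and 4.00 ± 0.893 CPM in controls and changed by -0.14 (SE 0.30, adjusted p = 0.757).

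Of the 5 lysyl oxidase genes, 4 rose. LOX, which starts the cross-links between collagen molecules, had 535, 280.3 and 629.5 CPM with TGF-β1 and 175, 127 and 179.9 CPM in controls. TGF-β1 replicate 2 was low, yet above all controls, and the change was 1.58 (SE 0.24, adjusted p = 0.000477) by edgeR with Benjamini-Hochberg adjustment. The LOX promoter window (chr5:122078210-122078509, minus strand) is shown because it holds 2 matches of CAGACA. These letters were no more common in the members (11.1%) than in all windows (16.8%), and a match says nothing of binding. Capitals mark matches of CAGACA (SMAD), of the SP1 box GGGCGG, or of the CCAAT box, on either strand.
LOX: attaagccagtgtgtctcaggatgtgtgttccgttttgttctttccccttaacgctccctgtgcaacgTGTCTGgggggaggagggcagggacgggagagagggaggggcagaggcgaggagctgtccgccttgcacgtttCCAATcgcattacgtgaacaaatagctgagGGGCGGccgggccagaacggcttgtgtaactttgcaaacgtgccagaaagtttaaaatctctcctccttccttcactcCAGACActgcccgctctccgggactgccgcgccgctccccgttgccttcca
LOXL1, LOXL2 and LOXL4, relatives of LOX with the same catalytic activity, rose by 0.82, 0.56 and 0.67 (adjusted p = 0.0338, 0.00469 and 0.0136). The LOXL1 call was lost without any 1 of 6 libraries (control replicates 1 and 3, TGF-β1 replicates 1 and 2, Dex replicate 1 and Dex + TGF-β1 replicate 1; adjusted p 0.0509 to 0.130). The LOXL4 call was lost without control replicate 3 or TGF-β1 replicate 3 (0.0664 and 0.0696). LOXL1-AS1, antisense to LOXL1, had 17.0% as many reads and a change of 0.90 (adjusted p = 0.117). LOXL3 had 53 reads over the TGF-β1 libraries and 45 over the controls, fewer than either overlapping gene, HTRA2 or DOK1, and did not pass the edgeR test (adjusted p = 0.303).

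The balance between chains of one collagen type was read as 7 ratios of levels per kilobase of the principal transcript, and libraries with and without TGF-β1 lay apart in 4 of them. Read density of COL1A1 over that of COL1A2 was 34.9 ± 3.73 with Dex + TGF-β1, 40.0 ± 2.69 with TGF-β1, 57.2 ± 10.2 with Dex and 70.0 ± 11.1 in controls (SD, n = 3 libraries). COL4A1 over COL4A2 was 1.01 ± 0.0484 with Dex + TGF-β1, 1.04 ± 0.0513 with TGF-β1, 0.530 ± 0.00704 with Dex and 0.496 ± 0.0182 in controls, so that the chains were at nearly equal density with TGF-β1 and COL4A2 was the denser without it. COL5A1 over COL5A2 was 8.53 ± 2.80 with Dex + TGF-β1, 8.46 ± 2.20 with TGF-β1, 2.71 ± 0.490 with Dex and 2.72 ± 0.256 in controls. COL6A1 over COL6A3 was 13.9 ± 5.32 with Dex + TGF-β1, 22.4 ± 11.01 with TGF-β1, 464 ± 217 with Dex and 754 ± 212 in controls. For each of these 4 ratios, no library with TGF-β1 overlapped any library without it. The other 3 ratios overlapped. COL6A1 over COL6A2 was 1.95 ± 0.459 with Dex + TGF-β1, 2.10 ± 0.596 with TGF-β1, 2.22 ± 0.410 with Dex and 2.59 ± 0.562 in controls. COL4A5 over COL4A6 was 2.79 ± 0.854 with Dex + TGF-β1, 3.19 ± 0.501 with TGF-β1, 2.78 ± 0.461 with Dex and 2.51 ± 0.496 in controls. COL4A4 over COL4A3 was 9.87 ± 0.322 with Dex + TGF-β1, 7.90 ± 1.20 with TGF-β1, 8.22 ± 1.98 with Dex and 5.56 ± 1.03 in controls. The absolute ratios depend on the transcript lengths used: with the union of exons, COL4A1 over COL4A2 was 1.39 with TGF-β1 and 0.662 in controls.

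The order of collagens by this per-kilobase level also changed. In TGF-β1 libraries COL1A1 led at 1578 CPM per kilobase, followed by COL5A1 at 448, COL4A1 at 413 and COL4A2 at 395. The libraries of COL1A1 lay clear of the next gene, whereas those of COL5A1, COL4A1 and COL4A2 overlapped. COL7A1 at 114 and COL6A1 at 107 came next and also overlapped. In controls COL6A1 at 85.9 and COL1A1 at 85.1 CPM per kilobase were first and overlapped, followed by COL4A2 at 46.05 and COL5A1 at 44.5, which overlapped as well. COL1A2 was the tenth collagen in TGF-β1 libraries, at 39.5, and the nineteenth in controls, at 1.24 CPM per kilobase.

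The effect of TGF-β1 was measured again on a dexamethasone background, in Dex + TGF-β1 against Dex, which shares no library with TGF-β1 against control. The comparisons are still not independent, because the fit shares its estimate of the spread and libraries of the same number correlated between groups. Here 32 of the 44 genes were higher and 3 lower, where 15.9% of all tested genes were higher and 16.4% lower, and with the replicate block 36 were higher and 5 lower, against 24% and 26% of all tested genes. Scaling by library size alone gave 31 of the 44 higher and 4 lower. It split all tested genes into 1325 higher and 4472 lower, where TMM gave 2145 and 2207. The block added COL6A1, COL6A2, CRTAP and LOXL3 as higher and COL5A3 and COL4A6 as lower. Of the genes higher in each comparison 30 were shared, 96.8% of the first 31 and 93.8% of these 32, and 3 were lower in both (COL8A1, COL4A5 and P3H2). The shared part over all tested genes was not counted, so this sharing cannot be called particular to the 44 genes. COL6A3 changed by 5.43, COL1A2 by 4.92, COL1A1 by 4.19, COL4A1 by 3.87 and P4HA3 by 3.40. COL17A1 passed here at 0.85 (edgeR adjusted p = 0.0474), a call lost without any 1 of 7 libraries (control replicate 3, TGF-β1 replicates 1 and 3, Dex replicates 2 and 3, Dex + TGF-β1 replicates 1 and 3; 0.0534 to 0.166). COL9A3 passed at 0.67 (adjusted p = 0.0092). P3H2 fell by 0.45 (adjusted p = 0.0161), a call lost without replicate 3 of Dex or of Dex + TGF-β1 (0.0668 to 0.0898). COL4A6 had an adjusted p of 0.0739 that became 0.00842 without Dex + TGF-β1 replicate 2, and CRTAP one of 0.0663 that became 0.0407 to 0.0472 without TGF-β1 replicate 2, Dex replicate 1 or Dex + TGF-β1 replicate 2. PCOLCE passed as lower without Dex + TGF-β1 replicate 3 (0.0473).

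In the fit without the replicate block, dexamethasone changed few of these genes in 4 h. With Dex against control, 3 of 44 genes were higher (COL8A1, LOX and P4HA2) and 0 were lower by edgeR with Benjamini-Hochberg adjustment, where 5.54% of all tested genes were higher and 4.9% lower. At an unadjusted p under 0.05 there were 6 higher and 5 lower, and DESeq2 called 4 higher and 0 lower. With Dex + TGF-β1 against TGF-β1, 3 were higher (COL8A1, LOX and P4HA3) and 0 lower, where 5.09% and 3.01% of all tested genes were higher and lower; at an unadjusted p under 0.05 the counts were 6 and 0, and by DESeq2 4 and 0. Without the block, the parts of the 44 genes called at an adjusted p by edgeR are near those of all genes. The shares of all tested genes at an unadjusted p or by DESeq2 were not counted, so those counts have no background here. The median change of the 44 genes was 0.10 for Dex against control and 0.022 for Dex + TGF-β1 against TGF-β1. For Dex against control the changes ran from -1.06 for COL13A1 to 1.10 for COL11A1, neither of them past the test. The replicate block raised the counts to 12 higher and 2 lower for Dex against control, and to 8 higher and 0 lower for Dex + TGF-β1 against TGF-β1, where it raised those of all tested genes to 10.8% higher and 11.4% lower, and to 9.47% and 8%. Under the block, the part of the 44 genes called higher was thus above that of all tested genes in both comparisons, and the part called lower was below it.

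**Figure D4:**
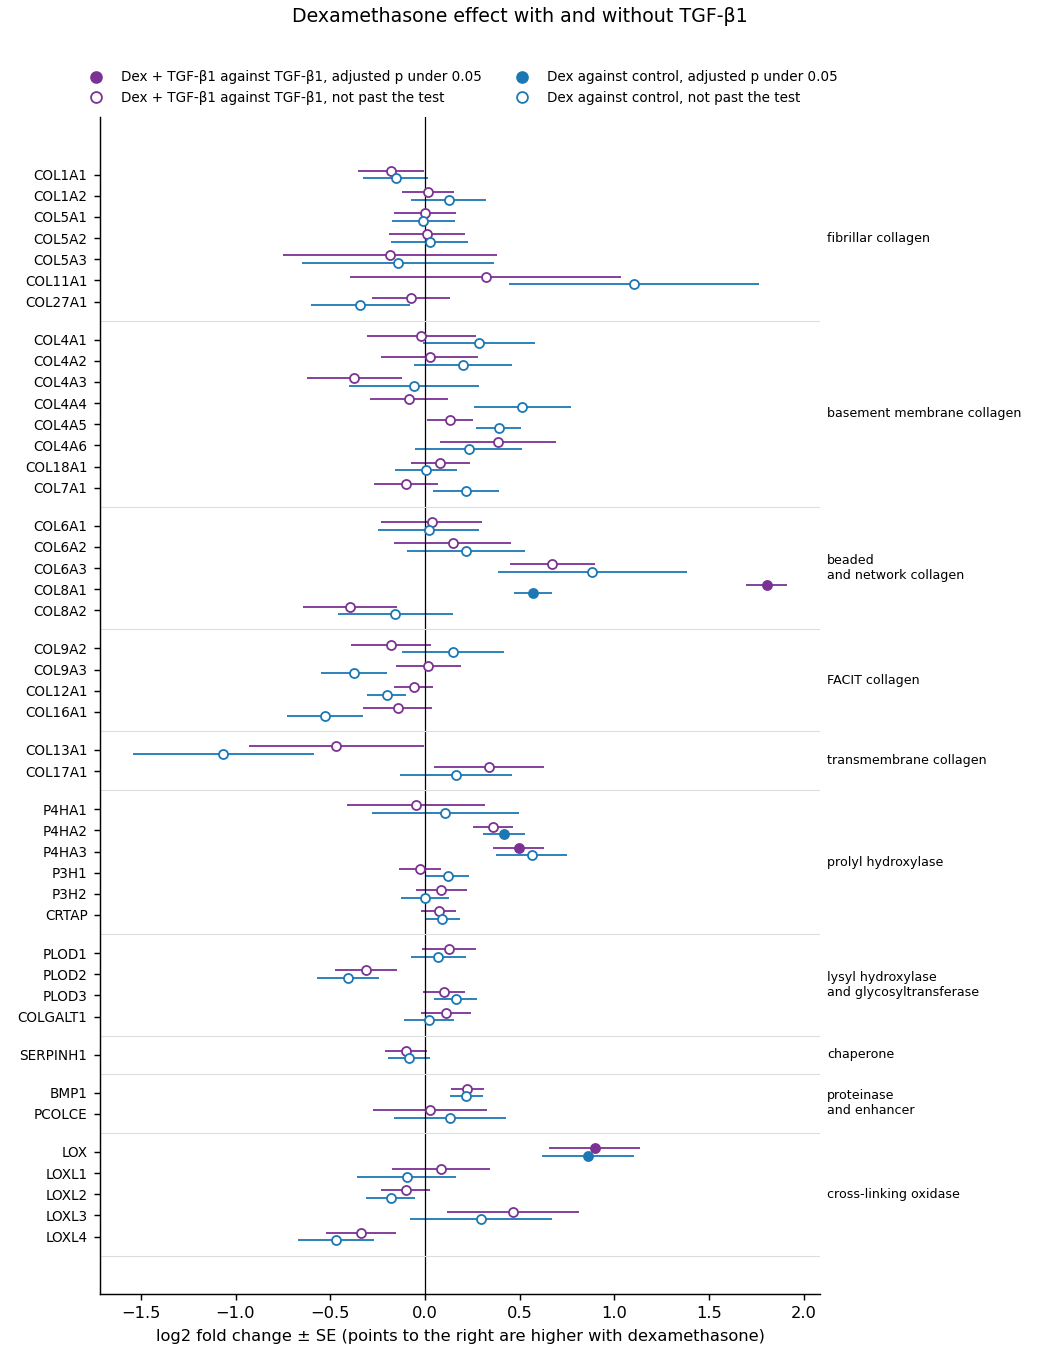
Log2 fold change ± SE (x axis) of dexamethasone for the 44 tested genes, grouped by role (y axis), with TGF-β1 present (Dex + TGF-β1 against TGF-β1) and without it (Dex against control); filled points have an adjusted p under 0.05. COL8A1 stands apart with TGF-β1, at 1.80, and lies at 0.57 without it, while LOX lies at 0.90 and 0.86. Without TGF-β1 the points farthest from 0 are COL11A1 at 1.10 and COL13A1 at -1.06, both open. Most other points lie within 0.5 of 0.

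COL8A1 showed the clearest response to dexamethasone, and the size of that response on the log2 scale differed with and without TGF-β1. It had 128, 95.0 and 108 CPM with Dex + TGF-β1, 33.3, 29.4 and 32.0 CPM with TGF-β1, 208, 191 and 175 CPM with Dex and 129, 124 and 133 CPM in controls. The Dex libraries were all above the controls, the TGF-β1 libraries were far below both, and of the Dex + TGF-β1 libraries 1 lay within the control range and the others below it. Dexamethasone raised it by 1.80 (SE 0.11) on the log2 scale, or 3.49-fold, in the presence of TGF-β1 (edgeR Benjamini-Hochberg adjusted p = 1.33e-07). Without TGF-β1 the rise was 0.57 (SE 0.10), or 1.49-fold (adjusted p = 0.00145). Both calls were kept without each of the 12 libraries in turn. With TGF-β1 the rise started from a lower level, and a difference in CPM was not tested. The difference between both log2 effects, tested as an interaction, was 1.23 (SE 0.15, adjusted p = 0.00141) by edgeR with Benjamini-Hochberg adjustment. That call was kept without each of the 12 libraries in turn and lost without replicate 1 or replicate 3 of every group (1.23 and 1.18, adjusted p = 0.101 and 0.107). Without the block it was the only one of the 44 genes past this test (1 higher, 0 lower), where 0.483% of all tested genes had a higher and 0.401% a lower interaction. At an unadjusted p under 0.05 the counts were also 1 and 0, and by DESeq2 1 and 0, with the shares of all tested genes under these settings not counted. Dex + TGF-β1 against control left COL8A1 at -0.22 (SE 0.10, adjusted p = 0.104), which became -0.34 (0.0184) without Dex + TGF-β1 replicate 1 and -0.23 (adjusted p = 0.00654) with the block. With the block COL4A1 also passed the interaction, at -0.33 (adjusted p = 0.0178), where 3.01% of all tested genes had a higher and 1.77% a lower interaction.

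LOX was higher with dexamethasone in both backgrounds. It had 901, 814 and 976 CPM with Dex + TGF-β1, 535, 280.3 and 629.5 CPM with TGF-β1, 301, 294 and 283 CPM with Dex and 175, 127 and 179.9 CPM in controls. Neither pair of groups overlapped, and the spread was widest in the TGF-β1 libraries, where replicate 2 was lowest. The rise was 0.90 (SE 0.24, adjusted p = 0.042) with TGF-β1 and 0.86 (SE 0.24, adjusted p = 0.0444) without it, by edgeR with Benjamini-Hochberg adjustment. Both calls rest close to the threshold. For Dex + TGF-β1 against TGF-β1 the call was lost without any 1 of 9 libraries (adjusted p 0.0560 to 0.133), and held without control replicate 2 or TGF-β1 replicate 2 or 3. For Dex against control it was lost without any 1 of 10 libraries (0.0574 to 0.140), and held without TGF-β1 replicate 2 or 3. Dex + TGF-β1 against control gave 2.48 (SE 0.25), and the interaction was 0.035 with a 95% interval of -0.71 to 0.78.

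P4HA2 and P4HA3, subunits of prolyl 4-hydroxylase, each passed the test for dexamethasone in 1 of the backgrounds. P4HA2 had 677, 553 and 659.6 CPM with Dex + TGF-β1, 539, 403 and 532 CPM with TGF-β1, 177, 166 and 164 CPM with Dex and 128, 129 and 123 CPM in controls. The groups with and without dexamethasone did not overlap in either background. Its rise with Dex against control was 0.42 (SE 0.11, adjusted p = 0.0233), lost without any 1 control library or Dex replicate 1 or 2 (0.0521 to 0.0913). Its change with Dex + TGF-β1 against TGF-β1 was 0.36 (SE 0.11, adjusted p = 0.0571), with an adjusted p of 0.0026 with the block and 0.0243 without Dex + TGF-β1 replicate 2. P4HA3 had 90.9, 66.0 and 81.3 CPM with Dex + TGF-β1, 59.4, 49.2 and 60.3 CPM with TGF-β1, 8.57, 8.78 and 6.13 CPM with Dex and 5.00, 5.28 and 5.02 CPM in controls. Its rise with Dex + TGF-β1 against TGF-β1 was 0.49 (SE 0.13, adjusted p = 0.0351) by edgeR with Benjamini-Hochberg adjustment, lost without any 1 TGF-β1 library or Dex + TGF-β1 replicate 1 or 3 (0.0565 to 0.166). With Dex against control it changed by 0.56 (SE 0.19, adjusted p = 0.078), with an adjusted p of 0.0335 with the block and 0.0176 without Dex replicate 3. PPME1, which overlaps P4HA3, changed by 0.32 with Dex against control and by 0.13 with Dex + TGF-β1 against TGF-β1 (edgeR adjusted p = 0.3165 and 0.825). Its part in the P4HA3 counts was not tested.

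**Figure D5:**
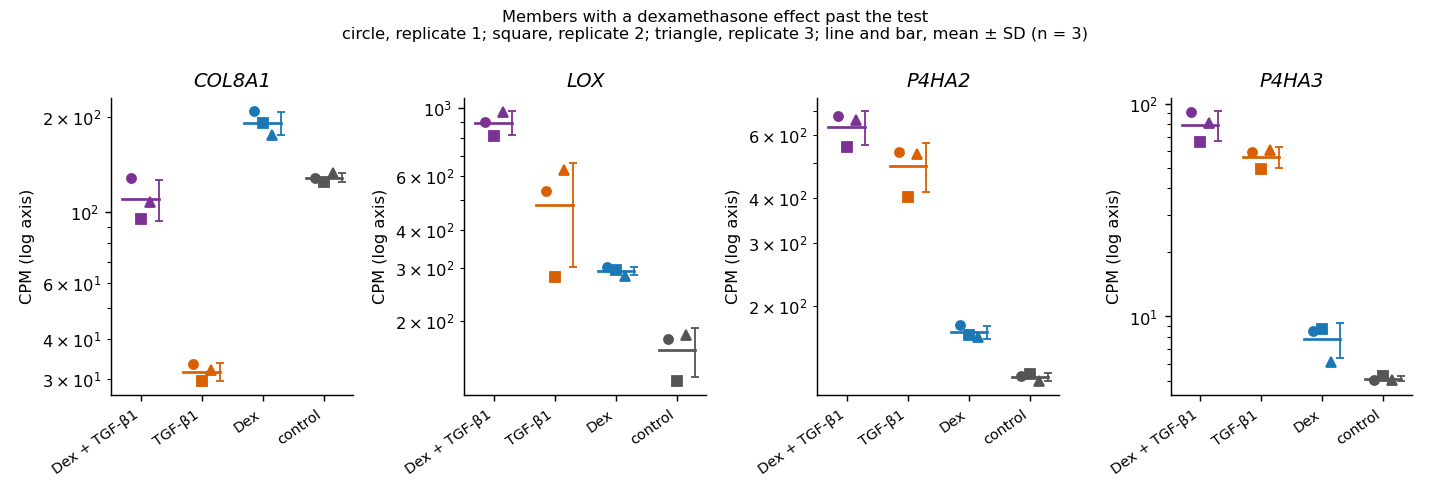
CPM (y axis, log scale) of COL8A1, LOX, P4HA2 and P4HA3 in the 3 libraries of each group (x axis), with the mean ± SD beside the points. COL8A1 averages 110.3 CPM with Dex + TGF-β1, 31.5 with TGF-β1, 191 with Dex and 129 in controls, while every library of LOX, P4HA2 and P4HA3 with dexamethasone lies above those without it on the same background.

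The fibrillar and type IV collagens that TGF-β1 raised did not pass the test for dexamethasone without the block. COL1A1 averaged 9377 ± 1307 CPM with Dex + TGF-β1 and 10616 ± 1288 CPM with TGF-β1, a change of -0.18 (SE 0.17) with a 95% interval of -0.55 to 0.19. COL1A2 changed by 0.017 (95% interval -0.27 to 0.31), COL5A1 by -0.0018 (-0.35 to 0.35) and COL4A1 by -0.018 (-0.66 to 0.62). All 4 intervals lie inside a 2-fold change in either direction. COL6A3 had 102, 67.7 and 95.5 CPM with Dex + TGF-β1 and 63.6, 39.4 and 63.1 CPM with TGF-β1. The groups did not overlap, and the change of 0.67 (SE 0.22) had an adjusted p of 0.102, which became 0.00703 with the block and 0.0461 without Dex + TGF-β1 replicate 2.

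The block called further small changes with dexamethasone that the fit without it did not. For Dex against control these were rises of COL4A1 (0.30), COL4A2 (0.21), COL4A4 (0.54), COL4A5 (0.39), COL4A6 (0.23), COL6A2 (0.22), P4HA3, PLOD3 (0.16) and BMP1 (0.22), and falls of COL9A3 (-0.37) and PLOD2 (-0.41). Thus 5 of 8 tested basement membrane collagens were higher with Dex under the block and 0 without it, where the block called 10.8% of all genes higher. Without the block, COL4A5 passed without TGF-β1 replicate 2 or Dex + TGF-β1 replicate 1 or 2 (adjusted p 0.0320 to 0.0422), COL16A1 passed as lower without control replicate 3 (0.0455) and PLOD2 without Dex replicate 2 (0.0219). For Dex + TGF-β1 against TGF-β1 the block added rises of COL4A6 (0.36), COL6A3 (0.67), COL17A1 (0.33), P4HA2 and BMP1 (0.22).

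Both treatments together set against the control gave 32 genes higher and 2 lower, where 18.5% of all tested genes were higher and 18.1% lower, and 33 higher and 5 lower with the block, against 26.5% and 26.7%. Under library size alone 28 of the members were higher and 3 lower, and all tested genes split into 1416 higher and 5342 lower, where TMM gave 2491 and 2434. The block added COL6A1 and COL6A2 as higher and COL5A3, COL4A6 and COL8A1 as lower. This comparison shares its controls with both single-treatment comparisons. The largest rises were those of COL6A3 at 6.31, COL1A2 at 5.04, COL4A1 at 4.15, COL1A1 at 4.03 and P4HA3 at 3.96. LOX, at 897 ± 80.7 CPM with Dex + TGF-β1 against 161 ± 29.4 CPM in controls, was 5.57-fold higher. The genes called lower were COL4A5 (-0.39, adjusted p = 0.0206) and P3H2 (-0.45, adjusted p = 0.0144), and each call was lost without any 1 of 3 libraries: control replicate 1 or 2 or Dex + TGF-β1 replicate 1 for COL4A5 (0.0522 to 0.0954), and control replicate 1 or 3 or Dex + TGF-β1 replicate 3 for P3H2 (0.0587 to 0.0800). COL4A6 passed as lower without Dex + TGF-β1 replicate 2 (0.0259), and COL6A2 as higher without control replicate 1 (0.0216). Of the genes called higher, COL17A1 was lost without control replicate 2 or 3 or Dex + TGF-β1 replicate 1 (0.0546 to 0.0806), and CRTAP without Dex + TGF-β1 replicate 3 (0.0639). LOXL1 was lost without control replicate 1 or 3 or Dex + TGF-β1 replicate 1 or 2 (0.0507 to 0.0793), and LOXL2 without control replicate 1 or 3 or Dex + TGF-β1 replicate 3 (0.0507 to 0.0682) or with the block (0.0594). LOXL3 (adjusted p = 0.0414) was lost without any 1 of 7 libraries (all 3 controls, TGF-β1 replicate 1, Dex replicate 1, Dex + TGF-β1 replicates 2 and 3; 0.0530 to 0.160) and by DESeq2.

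Other genes of the pathway were read from lists of genes that are not among the 46. With TGF-β1 against control, their counts stand beside 16.2% of all tested genes higher and 16.6% lower. Those shares are of adjusted edgeR calls, and shares at an unadjusted p or by DESeq2 were not counted. The lists were chosen with earlier results of these data known, so the counts are description and not independent support. Of 19 further folding, modification and secretion genes, 18 were tested, and with TGF-β1 against control 14 rose and 0 fell (14 and 0 by unadjusted p under 0.05 and 14 and 0 by DESeq2), with a median log2 fold change of 0.78. They include CREB3L1, a transcription factor of secretory and collagen genes, at 2.82 (SE 0.23), SEC24D, a coat protein of the vesicles that export procollagen, at 1.49 (SE 0.12), and PPIB, cyclophilin B of the prolyl 3-hydroxylase complex, at 1.31 (SE 0.095). Of 9 collagen-degrading genes, 7 were tested and 6 rose, with a median of 2.38. FAP, a cell-surface proteinase that cuts denatured collagen, averaged 87.6 ± 54.2 CPM with TGF-β1 and 1.62 ± 1.02 CPM in controls, and the gelatinase gene MMP9 averaged 9.86 ± 3.12 CPM with TGF-β1 and 0.783 ± 0.801 CPM in controls. MMP13, a collagenase, had 114 reads over the TGF-β1 libraries (4.94 ± 3.76 CPM) and 0 over the controls. That mean is 55.6-fold a control level set at the floor of 3 reads over the group, leaving out the spread of the TGF-β1 libraries. MMP9 and MMP13, with 20 and 0 control reads, passed the count filter only through groups with TGF-β1, so the filter favoured their rise. Of 9 collagen receptor genes, 7 were tested, 4 rose, 1 fell (3 and 2 by DESeq2) and the median was 0.71. ITGA11, the integrin chain that binds fibrillar collagen, rose by 6.97 (SE 0.39), to 238 ± 48.4 CPM with TGF-β1 against 2.21 ± 1.10 CPM in controls, and its partner ITGB1 by 1.43 (SE 0.13), while the integrin chain ITGA10 fell by 0.72 (SE 0.21).

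Dexamethasone against control changed 3 of the 7 tested receptor genes, 2 higher and 1 lower, where 5.54% of all tested genes were higher and 4.9% lower. ITGA10 averaged 85.9 ± 15.4 CPM with Dex and 13.1 ± 2.23 CPM in controls, a change of 2.71 (SE 0.19), and ITGA2 fell by 0.97 (SE 0.21). Of 8 other procollagen proteinase and enhancer genes, 4 were tested. ADAMTS2, the procollagen N-proteinase, rose by 1.33 (SE 0.25) with TGF-β1 and by 1.34 (SE 0.24) with Dex, and ADAMTS3, its relative, fell by 1.14 (SE 0.22) with Dex. With Dex + TGF-β1 against TGF-β1, where 5.09% of all tested genes were higher and 3.01% lower, TLL1, a relative of BMP1, rose by 1.47 (SE 0.34) at under 2 CPM and was not called by DESeq2, and ADAMTS3 fell by 0.98 (SE 0.21). TLL1, with 20 reads with TGF-β1 and 55 with Dex + TGF-β1, passed the count filter only through the Dex + TGF-β1 group. The filter thus favoured the rise of TLL1. Among 16 other collagen genes, 6 were tested with TGF-β1, of which 2 rose and 2 fell with a median of 0.70: COL22A1 rose by 4.98 (SE 0.54) and COL20A1 by 2.50 (SE 0.73), and COL25A1 and COL14A1 fell by 2.34 (SE 0.40) and 1.28 (SE 0.34), all averaging under 7 CPM. COL22A1 and COL20A1, with 7 and 9 control reads, also passed the count filter only through groups with TGF-β1. The adjusted calls of all these lists come from the same edgeR fit.

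Promoter letters were counted in the 36 of 46 members with a window in the RefSeq table, beside all 27305 windows of that length. CAGACA, on either strand, was in 4 members (11.1%) and in 16.8% of all windows; the 4 were COL16A1, COL7A1, LOX and P4HA2. The SMAD palindrome GTCTAGAC was in 0 members and in 0.201% of all windows. GGGCGG was in 24 members (66.7%) and in 44.6% of all windows, CCAAT in 11 (30.6%) and 35.7%, and TATAAA in 5 (13.9%) and 12%. The glucocorticoid response element, searched in its full form on both strands, was in 0 members and in 1 of 27305 windows. No motif spelled out here lies whole inside another. The letters of 10 members, COL1A1, COL1A2 and COL8A1 among them, were not read.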

How the data were processed

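Per the labels' protocols, RNA was purified on columns and polyadenylated RNA went into a non-directional library kit. The submitters' processing notes name featureCounts and hg38. The aligner, annotation release and strand setting were not given in the sources used here. Whole-number read counts per gene identifier were deposited by the authors, with no normalization. Of 18 count columns, 12 match a labelled library and 6 do not and were not used. RefSeq (GRCh38.p14) gave symbols for 27745 of 28395 identifiers (99.943% of counts). Genes were kept with filterByExpr (minimum count 10), which left 13469, and tested with TMM scaling and edgeR's quasi-likelihood test over all 12 libraries (edgeR 4.0.16, R 4.3.3), with Benjamini-Hochberg adjustment and a threshold of 0.05. Each SE is the size of the log2 change over the root of its F, and 95% intervals use the t quantile. CPM used TMM-scaled library sizes. Levels per kilobase used principal transcripts of GENCODE release 29, which may not be the authors' annotation.

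The design text calls the libraries biological triplicates. No pair of replicates agreed within counting noise (chi-square over its degrees of freedom, 5.451 to 16.43). After removal of group means, libraries of the same number in different groups correlated in all 18 pairs at 0.25 to 0.541, so the number, which the labels give, was treated as a pairing found in the data and fitted as a block beside the unblocked test. On simulated counts for TGF-β1 against control (13272 genes), edgeR recovered 89% of 100 genes changed by 1 and 99% of 100 changed by 2 on the log2 scale. It also called 6 unchanged genes. The simulated counts held no replicate effect and a spread set by mean level alone, so these rates need not hold for the real libraries. Alternatives were the block, DESeq2 (1.42.0) and its size factors, library size alone, no count filter, a 2-fold limit, and leaving out each library and each replicate number. Per-library statistics are printed for the highest-ranked gene past the test in each functional group and for the genes called in the interaction, and up to 3 genes are named per list and direction. The members and lists were chosen with earlier results of these data known. Tables and figures used Python 3.11.15, pandas 2.3.3 and matplotlib 3.10.9.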

Additional observations from a re-analysis of the deposited data

Results flagged for a closer look

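Without the replicate block, COL8A1 was the only member whose dexamethasone effect differed between backgrounds by a test of the difference itself: the interaction was 1.23 on the log2 scale (SE 0.15, edgeR Benjamini-Hochberg adjusted p = 0.00141). The dexamethasone effect on the log2 scale was 1.80 with TGF-β1 and 0.57 without it, and differences in CPM were not tested. The compared libraries did not overlap in either case. The call was kept without each of the 12 libraries in turn (adjusted p at most 0.00536) and was lost without replicate 1 or replicate 3 of every group, where it reached at most 0.107. With the block COL4A1 also passed, at -0.33 (adjusted p = 0.0178).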

How the results depend on the processing

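Gene results were followed where they passed the threshold with or without the block, and none of these 143 changed direction past it under any alternative. A 2-fold limit left 1 lower gene of 4 for TGF-β1 against control, 0 higher of 3 for Dex against control, 1 higher of 3 for Dex + TGF-β1 against TGF-β1, 0 lower of 3 for Dex + TGF-β1 against Dex and 0 lower of 2 for Dex + TGF-β1 against control. The replicate block gave 12 higher and 2 lower for Dex against control, 8 higher for Dex + TGF-β1 against TGF-β1, 5 lower for Dex + TGF-β1 against Dex, 5 lower for Dex + TGF-β1 against control and 1 lower interaction (COL4A1). Of the 143 gene results, chosen in part by the block fit itself, the block moved 32 past the threshold and took 1 below it. It changed no other call. Leaving out a library or a replicate number gave 28 to 32 higher and 1 to 4 lower for TGF-β1 against control, 1 to 4 and 0 to 1 for Dex against control, 1 to 5 and 0 to 0 for Dex + TGF-β1 against TGF-β1, 29 to 33 and 2 to 4 for Dex + TGF-β1 against Dex, 27 to 32 and 0 to 3 for Dex + TGF-β1 against control, and 0 to 1 and 0 to 0 for the interaction. Scaling by library size alone moved the median of all tested genes by -0.21 for TGF-β1 against control, by -0.20 for Dex + TGF-β1 against Dex and by -0.26 for Dex + TGF-β1 against control; CRTAP, LOXL1 and LOXL4 then missed the threshold (adjusted p 0.695, 0.0869 and 0.0630) in TGF-β1 against control. Depth limits COL3A1 and COL15A1, which were not tested, and COL11A1 and COL13A1, with 22 to 84 reads per group of 3 libraries.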
